A study of Homo sapiens with 4 samples.

Results

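The genes described are 31 that p53 is known to switch on, other than those of the CDK inhibitor p21 and the ubiquitin ligase MDM2. They are listed by name, and all 31 were found among the 20263 human Ensembl gene IDs of the count table. The cells were MDA-MB-231, an established human line from a triple-negative breast cancer. For 24 h they received either RB-1, a compound that the title of the series derives from the CDK4/6 inhibitor ribociclib, or the solvent DMSO, in 2 libraries each. The labels give no dose of RB-1, and RB-1 is known here only by its code name. The question is which of these transcripts differed in RB-1 cells, in a series whose title names the p53 pathway.

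The protein p53 is a transcription factor that is held at low levels by MDM2 and accumulates when DNA is damaged or growth signals are disturbed. It binds paired copies of a short element in its target genes and raises their transcription, which halts the cell cycle, aids DNA repair, tunes metabolism or starts cell death. Many of the genes also answer to other regulators, such as ATF4 of the integrated stress response for GDF15 and SESN2. The labels do not give the state of p53 in these cells. Whether p53 acted on any of the genes here was not tested.

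Of the 31 genes, 29 had enough counts to be tested, and 7 rose and 5 fell in RB-1 (edgeR's quasi-likelihood F test, adjusted p below 0.05). The 7 that rose were GDF15, PERP, PHLDA3, GADD45A, TRIAP1, SESN2 and TP53INP1. The 5 that fell were ASCC3, CYFIP2, TIGAR, CCNG1 and PLK2. Among all genes, 28.3% of 13612 tested genes passed, 12.5% higher and 15.8% lower, against 41.4%, 24.1% and 17.2% of the 29 tested genes. The median log2 fold change was 0.22 for the 29 genes and 0.01 for all tested genes. These shares are descriptions, and no test of the group as a whole was made. The genes were chosen with earlier results of these data known. The other 17 tested genes lay between -0.59 and 0.81 on the log2 scale, and 1 of them (PLK3) had an unadjusted p under 0.05.

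The promoters of target genes can hold the p53 element close to the start of transcription. RefSeq promoter windows (GRCh38.p14, 250 bases before to 50 after an annotated start) were at hand for 23 of the 31 genes, in 31 windows. The other 8 were RRM2B, ASCC3, GADD45A, PHLDA3, TP53INP1, TNFRSF10C, TRIM22 and FBXO22. An exact match to the p53 half-site consensus, which reads the same on both strands, stood in 6 of the 31 windows, each of another gene, and in 6.63% of all 35116 windows. A pair of half-sites at most 13 bases apart, with at most 2 mismatches in all, stood in 3 of the 31 windows, those of DDB2, AEN and FDXR, and in 2.93% of all windows. Printed here, 5′ to 3′ on the gene's strand with exact half-sites in capitals, are these 3 windows and that of PLK2, whose transcript was the only one of the 6 genes' to pass the test:
DDB2, chr11:47214724-47215023, plus strand: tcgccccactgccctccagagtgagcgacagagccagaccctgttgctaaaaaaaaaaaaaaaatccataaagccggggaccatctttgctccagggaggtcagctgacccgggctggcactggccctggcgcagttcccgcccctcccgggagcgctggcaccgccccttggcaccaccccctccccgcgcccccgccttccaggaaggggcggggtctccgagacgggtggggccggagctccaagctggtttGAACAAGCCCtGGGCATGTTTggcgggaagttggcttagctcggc
AEN, chr15:88621090-88621389, plus strand: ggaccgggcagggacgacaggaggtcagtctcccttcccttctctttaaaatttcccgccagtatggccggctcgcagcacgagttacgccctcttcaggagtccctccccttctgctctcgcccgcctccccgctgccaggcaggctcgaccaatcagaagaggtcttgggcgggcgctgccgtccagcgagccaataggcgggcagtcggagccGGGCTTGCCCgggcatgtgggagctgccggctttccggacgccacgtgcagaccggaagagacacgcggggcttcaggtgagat
FDXR, chr17:74872945-74873244, minus strand: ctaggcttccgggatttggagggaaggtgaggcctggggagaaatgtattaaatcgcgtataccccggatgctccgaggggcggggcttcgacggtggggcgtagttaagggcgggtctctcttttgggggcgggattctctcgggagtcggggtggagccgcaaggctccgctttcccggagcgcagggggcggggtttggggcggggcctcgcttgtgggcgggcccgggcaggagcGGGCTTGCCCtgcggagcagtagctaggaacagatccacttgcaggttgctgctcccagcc
PLK2, chr5:58460037-58460336, minus strand: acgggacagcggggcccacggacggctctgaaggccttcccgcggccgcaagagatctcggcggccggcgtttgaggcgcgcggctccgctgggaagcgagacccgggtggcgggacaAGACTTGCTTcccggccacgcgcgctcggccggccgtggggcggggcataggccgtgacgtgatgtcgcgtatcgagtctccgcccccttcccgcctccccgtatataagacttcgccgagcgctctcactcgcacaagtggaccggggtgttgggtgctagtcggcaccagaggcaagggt
DDB2 holds both half-sites, without a mismatch, just downstream of its start, and in PLK2 the half-site begins 132 bases before the start. The other genes with an exact half-site were SESN1 and PHLDB3. In RB-1, 0 of these 6 genes rose, 1 fell (PLK2) and 5 did not pass, beside 12.5% higher and 15.8% lower of all tested genes. The number of the 6 with an unadjusted p under 0.05 was also 1. So few genes cannot show whether a half-site goes with the response. GADD45A, PHLDA3 and TP53INP1 rose but had no window to search. A match is a description of letters and does not show binding. Sequence outside the windows was not searched, so a window without a match does not mean that its gene lacks the element. The element TGATGNAAN, known from genes answering to ATF4, was searched on both strands and stood in 1 of the 31 windows, that of PLK3, and in 3.61% of all windows.

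Library totals ran from 34122874 to 37754168 counts, and a floor of 3 counts came to between 0.0795 and 0.0916 CPM. Values below are CPM, counts scaled to the library's TMM-adjusted size. The 13 protein genes of mitochondrial DNA took 4.25% and 6.46% of counts in RB-1 replicates 1 and 2, against 8.68% and 21.7% in DMSO replicates 1 and 2. DMSO replicate 2 therefore stood apart in this share, and results that end without it are named below. The mesenchymal markers VIM, CD44, AXL and MSN had 15575 to 204640 counts in every library, whereas the epithelial cadherin CDH1 had at most 2, the estrogen receptor ESR1 at most 23 and the progesterone receptor PGR at most 58. ERBB2 had 2145 to 2694 counts and EPCAM 313 to 509. Among markers of other cells, PTPRC of leukocytes had at most 22 counts, CD3E none, PECAM1, VWF and CDH5 of endothelium at most 42, and COL3A1, DCN and LUM of fibroblasts at most 10, while COL1A1 had 177 to 265 and CD68 5571 to 11138. The labels do not say whether replicates came from separate cultures, so p-values measure the spread between these libraries, which may be technical. In bulk RNA, fewer cells expressing a gene and less RNA of it per cell cannot be told apart.

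**Figure D1:**
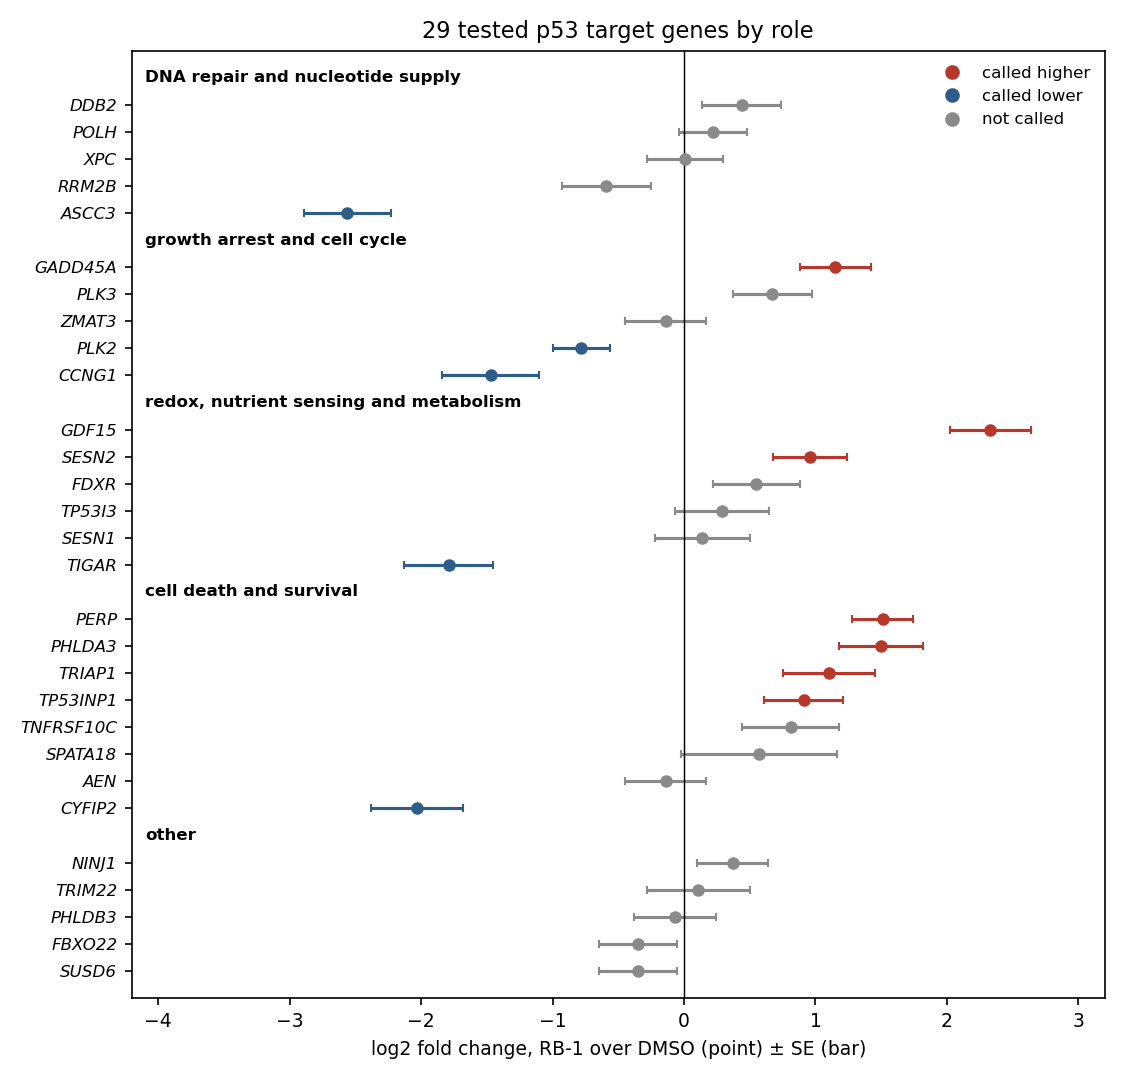
Log2 fold change (RB-1 over DMSO, points) with its standard error (bars) for the 29 tested p53 target genes, grouped by role. GDF15 (2.33) and ASCC3 (-2.56) mark the ends, the calls fall on either side of 0, and no gene of the last group was called.

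Genes of metabolism, redox balance and nutrient sensing gave the largest rise. GDF15 (ENSG00000130513), a secreted stress cytokine of the TGF-beta family, had 40.3 and 49.6 CPM in RB-1 libraries, against 7.57 and 10.3 CPM in DMSO libraries. The RB-1 libraries lay far above the DMSO libraries, with group means of 44.9 ± 6.58 and 8.93 ± 1.92 CPM (SD, n = 2 each). The fold was 5.03 (log2 fold change 2.33 ± 0.31 SE, adjusted p = 0.000888). SESN2, a sestrin that senses leucine and restrains mTORC1, had 26.9 and 25.9 CPM in RB-1, against 13.4 and 13.9 CPM in DMSO. The replicates of each group nearly coincided, and the fold was 1.94 (0.96 ± 0.28, adjusted p = 0.0297). It did not pass without DMSO replicate 1 (0.93, adjusted p = 0.193), DMSO replicate 2 (1.0, 0.177) or RB-1 replicate 1 (0.93, 0.062), with the log2 value hardly moved.

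The sestrin paralogue SESN1 had 5.27 and 6.28 CPM in RB-1 and 6.42 and 4.09 CPM in DMSO, so its groups overlapped (0.14 ± 0.36, adjusted p = 0.803). Whether the responses of SESN1 and SESN2 differ was not tested. TIGAR, a phosphatase that lowers the flux through glycolysis, moved the other way, with 5.8 and 3.79 CPM in RB-1 libraries, against 17.6 and 15.6 CPM in DMSO libraries. Both RB-1 libraries lay well under both DMSO libraries, a 3.45-fold fall (-1.79 ± 0.34, adjusted p = 0.00452). Neither of the oxidoreductase genes passed. FDXR, the mitochondrial ferredoxin reductase, had 12.7 and 8.31 CPM in RB-1 and 7.28 and 7.08 CPM in DMSO (0.55 ± 0.33, adjusted p = 0.238). TP53I3, a quinone oxidoreductase, had 15.5 and 8.12 CPM in RB-1 and 9.86 and 9.46 CPM in DMSO (0.29 ± 0.36, adjusted p = 0.574). In both genes RB-1 replicate 1 was high, and in TP53I3 replicate 2 lay below both DMSO libraries. Without RB-1 replicate 1 TP53I3 stood at -0.25 (adjusted p = 0.654).

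Genes of cell death and survival held 4 of the 7 rises, with 1 fall, 3 that did not pass and 1 not tested. That is 50% higher and 12.5% lower of the 8 tested, beside 12.5% and 15.8% of all tested genes. PERP (ENSG00000112378), a membrane protein of desmosomes that also promotes apoptosis, had 321 and 286 CPM in RB-1 libraries, against 114 and 99.9 CPM in DMSO libraries. Both RB-1 values stood clear of DMSO, a fold of 2.84 (1.51 ± 0.23, adjusted p = 0.00165). PHLDA3, which keeps the survival kinase AKT from the membrane, had 26.1 and 18.3 CPM in RB-1, against 8.66 and 7.08 CPM in DMSO. The lower RB-1 library still exceeded the higher DMSO library, and the fold was 2.82 (1.5 ± 0.32, adjusted p = 0.00786). Without DMSO replicate 2 it did not pass (1.38, adjusted p = 0.0928).

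TRIAP1, a small mitochondrial protein of lipid transfer that opposes apoptosis, had 56.4 and 30.5 CPM in RB-1, against 23.5 and 17.2 CPM in DMSO. The groups did not overlap, but the RB-1 libraries differed from each other by 1.85-fold, nearly as much as the 2.14-fold change (1.10 ± 0.35, adjusted p = 0.0398). The call ended without DMSO replicate 1 (1.34, adjusted p = 0.0918), DMSO replicate 2 (0.91, 0.258) or RB-1 replicate 1 (0.59, 0.222), and with limma-voom (1.05, 0.051). TP53INP1, which promotes autophagy and cell death, had 26 and 35.4 CPM in RB-1, against 16.6 and 16.1 CPM in DMSO. Here RB-1 replicate 2 was the higher of the RB-1 libraries, and the fold was 1.88 (0.91 ± 0.30, adjusted p = 0.0423). It did not pass without DMSO replicate 1 (0.93, adjusted p = 0.201), DMSO replicate 2 (0.91, 0.226) or RB-1 replicate 2 (0.67, 0.11).

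CYFIP2, a subunit of the WAVE complex that drives actin branching, had 1.86 and 1.74 CPM in RB-1 libraries, against 6.99 and 7.72 CPM in DMSO libraries. Replicates lay close together and the groups far apart, a 4.09-fold fall (-2.03 ± 0.35, adjusted p = 0.00301). TNFRSF10C, a decoy receptor that binds the death ligand TRAIL without signalling, had 5.64 and 4.25 CPM in RB-1 and 3.18 and 2.47 CPM in DMSO (0.81 ± 0.37, adjusted p = 0.123). It has close paralogues, so its read assignment is uncertain. AEN, a nuclease of apoptosis, had 31.8 and 20.4 CPM in RB-1 and 31.1 and 26.2 CPM in DMSO, with overlapping groups (-0.14 ± 0.31, adjusted p = 0.771). SPATA18, of mitochondrial quality control, stayed under 1 CPM throughout, with 30 and 21 counts in RB-1 libraries and 20 and 11 in DMSO libraries (0.57 ± 0.59, adjusted p = 0.499). EDA2R, a receptor of the ectodysplasin family, had 0 counts in all 4 libraries and was not tested, so that any level under the floor of 3 counts would not have been detectable.

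**Figure D2:**
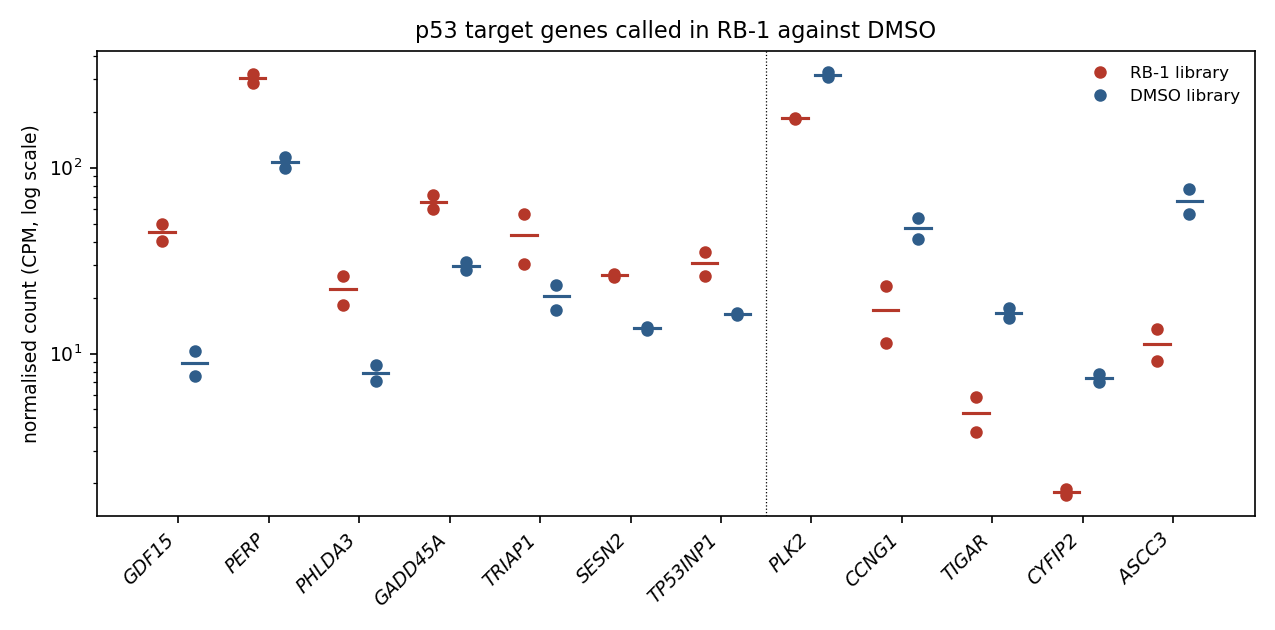
CPM on a log scale of each library (points) and the group mean (bars) for the 12 called genes, RB-1 in red beside DMSO in blue, ordered by log2 fold change. In every gene the RB-1 and DMSO points do not overlap, and CCNG1 and TRIAP1 show the widest gap between RB-1 libraries.

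Genes of growth arrest moved both ways, with GADD45A higher and CCNG1 and PLK2 lower. That is 20% higher and 40% lower of the 5 tested, beside 12.5% and 15.8% of all tested genes. GADD45A, a stress protein that acts on cell cycle kinases and repair, had 70.9 and 59.6 CPM in RB-1, against 28 and 30.9 CPM in DMSO. The groups were well separated, with a fold of 2.22 (1.15 ± 0.27, adjusted p = 0.0122), but it did not pass without DMSO replicate 1 (1.08, adjusted p = 0.107) or DMSO replicate 2 (1.24, 0.0884). CCNG1, the atypical cyclin G1, had 11.4 and 23 CPM in RB-1 libraries, against 41.5 and 53.6 CPM in DMSO libraries. It was the only one of the 29 tested genes whose RB-1 libraries differed by more than 2-fold (2.03-fold), yet both were under both DMSO libraries, a 2.76-fold fall (-1.47 ± 0.37, adjusted p = 0.0152). It did not pass without DMSO replicate 2 (-1.25, adjusted p = 0.121) or RB-1 replicate 1 (-1.04, 0.0632).

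PLK2, a polo-like kinase of the stress response, had 186 and 184 CPM in RB-1, against 307 and 328 CPM in DMSO. Replicates lay close together, and the 1.72-fold fall was the smallest called change (-0.78 ± 0.22, adjusted p = 0.0238). It did not pass when any 1 library was left out (-0.83 to -0.71, adjusted p from 0.0502 to 0.153) or when scaled by library totals alone (-0.58, 0.0878). Its relative PLK3 had 18 and 17.7 CPM in RB-1 and 12.2 and 10.2 CPM in DMSO; the groups did not overlap, and the difference did not pass (0.67 ± 0.30, adjusted p = 0.111). Whether PLK2 and PLK3 differ in response was not tested. ZMAT3, a zinc finger protein that binds RNA, had 23.6 and 39.3 CPM in RB-1 and 35.5 and 33.6 CPM in DMSO, with the RB-1 libraries on either side of DMSO (-0.14 ± 0.31, adjusted p = 0.773). BTG2, an antiproliferative cofactor, had 6 and 8 counts in RB-1 libraries and 9 and 18 in DMSO libraries, too few to be tested.

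Of the genes of DNA repair and nucleotide supply, 1 of 5 passed, or 20%, beside 28.3% of all tested genes. ASCC3 (ENSG00000112249), a helicase that unwinds alkylated DNA and splits stalled ribosomes, had 9.09 and 13.5 CPM in RB-1 libraries, against 76.8 and 56.4 CPM in DMSO libraries. It was the largest fall of the 29 genes, 5.90-fold (-2.56 ± 0.33, adjusted p = 0.000713). DDB2, which recognises ultraviolet lesions, had 21.7 and 16.9 CPM in RB-1 and 13.4 and 15 CPM in DMSO (0.44 ± 0.30, adjusted p = 0.288), with the groups just apart. POLH, the polymerase that bypasses such lesions, had 58 and 62.4 CPM in RB-1 and 50.8 and 52.3 CPM in DMSO (0.22 ± 0.26, adjusted p = 0.543), again apart by little. XPC, the damage sensor of nucleotide excision repair, was level, with 25.9 and 23.9 CPM in RB-1 and 28.1 and 21.5 CPM in DMSO (0.01 ± 0.29, adjusted p = 0.99). About 10.8% of its exon bases lie over an opposite-strand gene, and whether reads were counted by strand is not known here. RRM2B, the p53-inducible small subunit of ribonucleotide reductase, had 14.9 and 22.3 CPM in RB-1 and 34.3 and 21.6 CPM in DMSO, with overlapping groups (-0.59 ± 0.34, adjusted p = 0.213).

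None of the 5 remaining genes passed, beside 28.3% of all tested genes. Of these 5, 1 lay with RB-1 above DMSO and 1 below, or 40% without overlap, beside 69.7% of all tested genes. NINJ1, which ruptures the plasma membrane of dying cells, had 38.7 and 36.4 CPM in RB-1 and 29.5 and 28.6 CPM in DMSO (0.37 ± 0.27, adjusted p = 0.326). SUSD6, a membrane protein, had 17.9 and 13.9 CPM in RB-1 and 18.9 and 21.6 CPM in DMSO (-0.35 ± 0.30, adjusted p = 0.396). In FBXO22, an F-box protein of a ubiquitin ligase, TRIM22, an interferon-inducible ubiquitin ligase, and PHLDB3 the groups overlapped, at -0.35, 0.11 and -0.07 on the log2 scale. The number of these 5 genes with an unadjusted p under 0.05 was 0.

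Per kilobase of the longest annotated transcript, the most abundant genes in RB-1 were PERP (70.7 CPM per kb), PLK2 (62.4), GADD45A (43.6), GDF15 (37.4) and TRIAP1 (36.8). In DMSO the order of level was PLK2 (107 CPM per kb), PERP (24.9), NINJ1 (22.7), GADD45A (19.7) and CCNG1 (19.4). In RB-1, TRIAP1 differed from GADD45A and GDF15 by less than its own spread, as did CCNG1 from NINJ1 and GADD45A in DMSO. The order of neighbouring ranks was not tested. At the low end of the tested genes stood SPATA18, with 0.154 CPM per kb in RB-1 and 0.103 in DMSO. The 31 genes together took 0.116% and 0.115% of the counts in RB-1 libraries, against 0.0995% and 0.0822% in DMSO libraries.

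Across the 29 tested genes both RB-1 libraries lay above both DMSO libraries in 13, below them in 6, and the groups overlapped in 10. Groups that do not overlap, in either direction, made up 65.5% of the 29 and 69.7% of all tested genes, a share not above that of the table. For the higher direction the share over all tested genes was 35.3%, and for the lower direction 34.3%. All 12 called genes were among the 19 that did not overlap.

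**Figure D3:**
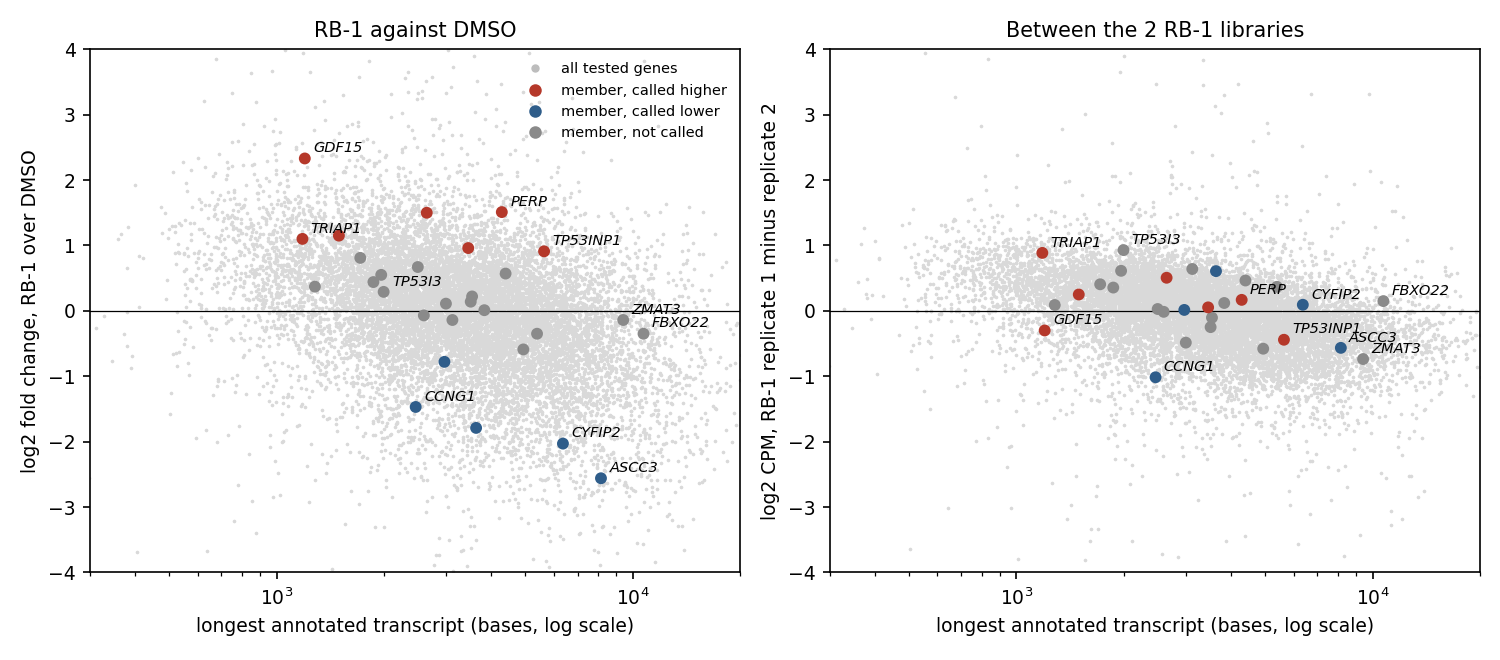
Left, log2 fold change (RB-1 over DMSO) against the length of the longest annotated transcript (log scale) for all tested genes (light grey) and the 29 p53 target genes; right, the log2 CPM difference between RB-1 replicates 1 and 2 on the same axis. Of the labelled long transcripts, ASCC3 and CYFIP2 lie low on the left, whereas FBXO22 lies at -0.35, ZMAT3 at -0.14 and TP53INP1 at 0.91. The cloud of all tested genes slopes downward in both panels.

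Transcript length moved with the fold changes of these genes, as it did over the table. The Spearman correlation of length and log2 fold change was -0.518 across the 29 genes and -0.38 across all tested genes; genes share their libraries and are not independent, so no p is given. Among the 8 tested members in the shortest quartile of transcripts (207 to 2139 bases), 3 rose and 0 fell, where 23.2% of all genes of that quartile rose and 4.82% fell. Among the 6 in the longest quartile (5183 bases and more), 1 rose and 2 fell, where 5.0% of all genes rose and 31% fell. The genes that rose had a median length of 2640 bases, from 1182 (TRIAP1) to 5638 (TP53INP1), and those that fell 3633 bases, from 2458 (CCNG1) to 8146 (ASCC3). Length also moved with the difference between the RB-1 libraries, with a correlation of -0.439 over all tested genes for replicate 1 minus replicate 2 and -0.306 over the 29. In the DMSO libraries the same correlation was 0.107. The part of length in these results was not tested beyond the following fit.

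With the trend along length and GC content taken out of each library, 7 genes rose and 5 fell, the same counts as before. Of all tested genes 16.7% were higher and 15.8% lower in that fit, against 12.5% and 15.8% in the reported fit. TRIAP1 did not pass (0.84, adjusted p = 0.0609), while ZMAT3, with a transcript of 9406 bases, passed as higher (0.83, adjusted p = 0.0169), its direction turned round. The other 11 calls held: GDF15 stood at 1.68, GADD45A at 0.68, PERP at 1.98, TP53INP1 at 1.55 and ASCC3 at -1.66. XPC, NINJ1, TP53I3 and FBXO22 changed sign without passing in either fit.

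**Figure D4:**
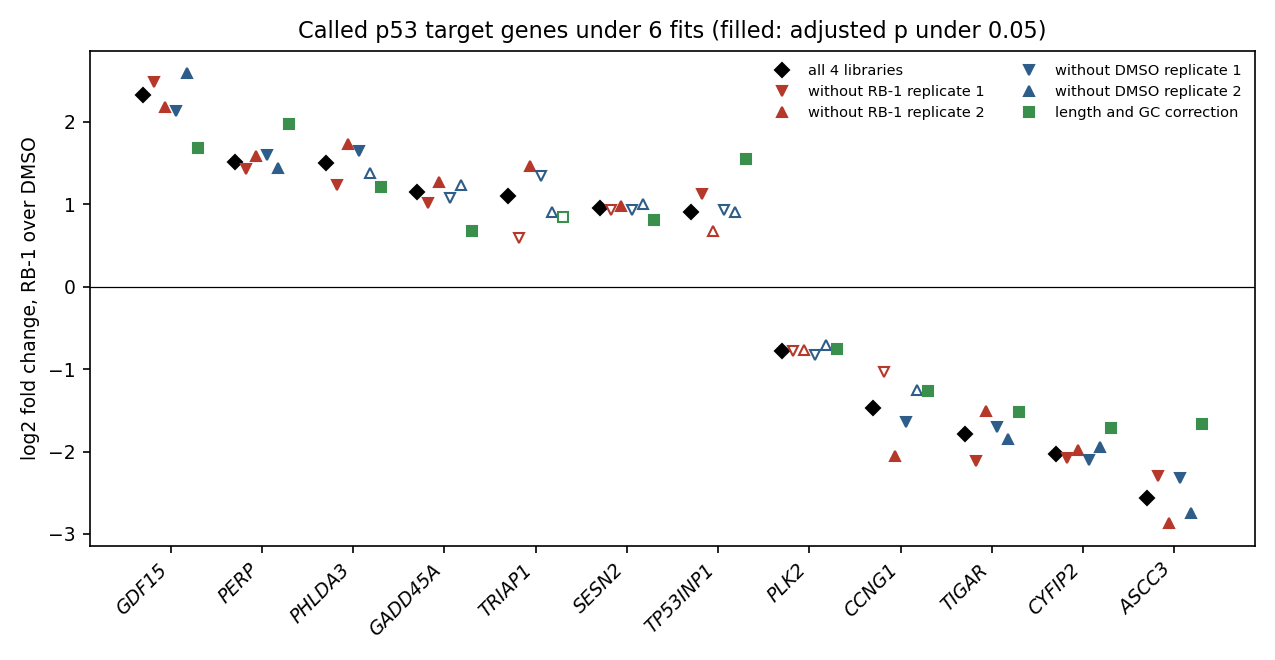
Log2 fold change (RB-1 over DMSO) of the 12 called genes with all 4 libraries, with each library left out, and with the length and GC correction; filled symbols have an adjusted p under 0.05. GDF15, PERP, TIGAR, CYFIP2 and ASCC3 are filled in all 6 fits, and no gene crosses 0.

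The calls differed in how many alternative fits they passed. With 1 library left out a group has a lone library, so a lost call alone does not show that the change rested on that library. GDF15, PERP, ASCC3, TIGAR and CYFIP2 passed in all 15 alternative fits. Their log2 fold changes ran from 1.68 to 2.59 for GDF15, 1.43 to 1.98 for PERP, -2.87 to -1.66 for ASCC3, -2.12 to -1.51 for TIGAR and -2.10 to -1.72 for CYFIP2. For the other called genes, leaving out 1 library gave 0.93 to 1.0 for SESN2, 1.02 to 1.27 for GADD45A and -0.83 to -0.71 for PLK2. Wider ranges were 1.23 to 1.73 for PHLDA3, 0.67 to 1.12 for TP53INP1, 0.59 to 1.47 for TRIAP1 and -2.06 to -1.04 for CCNG1. With DMSO replicate 2 left out, 2 genes rose (GDF15 and PERP) and 3 fell (ASCC3, TIGAR and CYFIP2). Over all genes tested in that fit, 2.76% were higher and 7.86% lower. Without DMSO replicate 1 there were 3 higher and 4 lower, beside 4.72% and 8.66% of all genes. Without RB-1 replicate 1 there were 5 and 3, beside 5.08% and 8.04%, and without RB-1 replicate 2 there were 6 and 4, beside 13.9% and 17.3%. Between the RB-1 libraries 7 of the 29 genes differed by more than 1.5-fold, and between the DMSO libraries 3 did. Replicate 1 of RB-1 held the higher value in 19 genes and replicate 2 in 10.

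In a list of other p53 pathway genes more rose than fell, but the list was chosen with earlier results of these data known. Of 36 further targets, 12 rose, 1 fell and 23 did not pass, with a median log2 fold change of 0.16. That is 33.3% higher and 2.78% lower, beside 12.5% and 15.8% of all tested genes. These shares too are descriptions and were not tested. Without DMSO replicate 2, 6 rose and 1 fell. CDKN1A, which encodes p21, had 71.2 and 60.3 CPM in RB-1, against 36.3 and 19.1 CPM in DMSO (1.25 ± 0.34, adjusted p = 0.0209). It did not pass without DMSO replicate 2 (0.88, adjusted p = 0.2) or RB-1 replicate 1 (1.13, 0.0982), or with the length and GC correction (0.91, 0.0696). MDM2 was at 17.1 and 98.7 CPM in RB-1 and 38.3 and 78.8 CPM in DMSO, a spread in which no direction can be read (-0.02 ± 1.02, adjusted p = 0.994), and without RB-1 replicate 2 it was lower (-1.77, 0.0369).

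The others that rose were DDIT4 (log2 fold change 2.60), an inhibitor of mTORC1, RPS27L (1.73), a ribosomal protein paralogue, TGFA (1.65), a ligand of the EGF receptor, and PMAIP1 (1.55) and BBC3 (1.42), which encode the death-promoting proteins NOXA and PUMA. FUCA1 (1.54), a lysosomal fucosidase, the TRAIL receptor genes TNFRSF10B (1.22) and TNFRSF10D (1.17), RAP2B (1.15), a small GTPase, IER5 (1.01), an immediate early gene, and TM7SF3 (0.83), a membrane protein, rose as well. Besides CDKN1A, the calls of BBC3 (1.37, adjusted p = 0.1), RPS27L (1.54, 0.0528), IER5 (0.81, 0.197), RAP2B (1.0, 0.0721) and TM7SF3 (0.75, 0.225) were lost without DMSO replicate 2. BBC3 and TM7SF3 also did not pass without DMSO replicate 1 (1.49, adjusted p = 0.0683, and 0.94, 0.115). With RB-1 replicate 1 left out, BBC3 (1.12, adjusted p = 0.0619), IER5 (0.68, 0.148) and TM7SF3 (0.59, 0.163) did not pass. KITLG, the ligand of the receptor KIT, was the gene that fell (-2.57). BAX, the pore-forming death protein, stood at 0.44 (adjusted p = 0.266) and the death receptor gene FAS at -0.67 (adjusted p = 0.166).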

How the data were processed

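RNA was sequenced from 4 libraries of MDA-MB-231 cells, prepared with an mRNA kit per the labels' protocols. The deposited table holds raw counts per Ensembl gene, 1 column per library, per the file headers. Aligner, counter and strand setting: not given in the sources used here. Mouse builds are listed in the submitters' processing notes, whereas all IDs are human, so genes were matched by ID (20148 with a symbol). Genes passing filterByExpr (13612) were scaled by TMM and fitted with edgeR 4.0.16 in R 4.3.3 (glmQLFit robust, glmQLFTest, two-sided, Benjamini-Hochberg over all tested genes, threshold 0.05). The standard error is the log2 fold change over the square root of F. Replicate counts, before TMM scaling, differed far beyond sampling noise. Chi-square per degree of freedom was 128 in RB-1 and 257 in DMSO, for genes averaging 10 counts or more. This does not show separate cultures, and all 4 libraries were kept. Transcript length, GC content and exon overlap came from GENCODE basic transcripts. Alternatives used DESeq2 1.42.0, limma 3.58.1, other scalings and filters, left-out libraries, a replicate block, and offsets smoothed on length and GC with mgcv 1.9.3. Floors cover counting error only. A gene of the fixed lists was left out of all list counts and is not reported here. The members and lists were chosen with earlier results of these data known. Each gene with a call, or with RB-1 libraries over 2-fold apart, has its value in every library.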

Additional observations from a re-analysis of the deposited data

How the results depend on the processing

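Of 31 p53 target genes, 7 rose and 5 fell in the reported fit. At an adjusted p under 0.01, 3 rose and 3 fell, beside 3.68% higher and 7.77% lower of all tested genes. Leaving out 1 library at a time gave 2 to 6 higher and 3 to 4 lower. In these fits 1 group has a lone library, which is assumed to vary like the other group. Adding the replicate number as a block gave 6 higher and 5 lower, TP53INP1 being the gene lost (0.89, adjusted p = 0.0571). The deviations of same-numbered libraries had a correlation of -0.0959. With 2 libraries a group this cannot settle whether same-numbered libraries share a culture or day, and the labels do not say. RLE and upper-quartile factors, no count filter, a stricter filter of 50 counts, DESeq2 and the length and GC correction gave 7 higher and 5 lower. Leaving out the 13 mitochondrial genes, an alternative chosen after seeing the data, gave the same counts, library totals alone gave 7 and 4, and limma-voom 6 and 5. Upper-quartile factors and library totals alone moved the median log2 fold change of all genes to 0.12 and 0.21, and their calls over the table to 2134 higher and 1815 lower, and 2015 and 1381, against 1702 and 2149. Calls over the table with the length and GC correction were 2277 higher and 2145 lower.

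Changes of sign occurred only in genes that did not pass in the reported fit, and the cause was not tested. With the length and GC correction FBXO22 was at 0.78, MDM2 at 0.82, NINJ1 at -0.29, TP53I3 at -0.13, XPC at -0.04 and ZMAT3 at 0.83. With library totals alone AEN was at 0.04, MDM2 at 0.24, PHLDB3 at 0.12 and ZMAT3 at 0.07, and with upper-quartile factors MDM2 was at 0.09 and PHLDB3 at 0.04. XPC was at -0.00069 with RLE factors and -0.00073 with DESeq2. Over the left-out libraries the ranges were -0.49 to 0.15 for AEN, -1.77 to 0.75 for MDM2, -0.18 to 0.09 for PHLDB3, -0.13 to 0.50 for SESN1, -0.25 to 0.68 for TP53I3, -0.16 to 0.34 for TRIM22, -0.15 to 0.21 for XPC and -0.55 to 0.19 for ZMAT3. With 2 libraries a group, a median standard error of 0.31 on the log2 scale among the 17 genes that did not pass leaves moderate changes undetected.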
